A study of Mus musculus with 59 samples.

Results

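The visceral endoderm genes Afp, Ttr, Apoa1, Apob, Amn, Cubn, Gata4, Gata6, Sox17 and Foxa2 were followed in 14 single mouse epiblasts at E6.25, just before gastrulation. The 10 genes were taken by symbol from the 22134 genes with a listed transcript, and each was represented by its transcript of highest mean count. The Ehmt2 cross held 4 controls, labelled G9a+/+, and 4 knockouts, labelled G9a-/-, and the Ezh2 cross held 3 controls, labelled Ezh+/+, and 3 knockouts, labelled Ezh-/-. Ehmt2 encodes G9a, the enzyme that places H3K9me2, and Ezh2 encodes the catalytic subunit of PRC2, which places H3K27me3. All embryos were of mixed background and came from crosses of heterozygous parents, so that the deletion was present in every cell of a knockout, including its extraembryonic tissue. The study's methods also count heterozygotes among the controls, whereas the labels give wild type. Each library was made from 750 pg of RNA of a single dissected epiblast that was not sorted, and the counts of a library summed to between 30161171 and 68464895.

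The visceral endoderm is the epithelium that wraps the epiblast and the extraembryonic ectoderm of the egg cylinder. It takes up maternal proteins through endocytic receptors and secretes carrier proteins and lipoproteins, much as liver and yolk sac do later. GATA factors, Hnf4a and Foxa2 run this programme, and cells at the anterior side secrete inhibitors that pattern the epiblast. The layer adheres to the epiblast and has to be peeled off to obtain it. In such bulk libraries, fewer cells of a type and less RNA per cell cannot be told apart.

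Promoters of 6 of the 10 genes were held in the RefSeq table (GRCm38.p6). The bases just before the start are shown for Afp and Apob, which were highest in the same embryos, and for Foxa2, which was highest in others. The regions are chr5:90490464-90490713 (plus strand), chr12:7977427-7977647 (plus strand) and chr2:148045949-148046198 (minus strand), written 5′ to 3′, and capitals mark matches to the motifs searched.
Afp: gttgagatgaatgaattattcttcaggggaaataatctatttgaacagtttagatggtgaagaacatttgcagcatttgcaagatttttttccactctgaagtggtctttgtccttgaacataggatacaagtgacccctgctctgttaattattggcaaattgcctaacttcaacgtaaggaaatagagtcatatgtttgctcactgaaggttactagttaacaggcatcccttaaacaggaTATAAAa
Apob: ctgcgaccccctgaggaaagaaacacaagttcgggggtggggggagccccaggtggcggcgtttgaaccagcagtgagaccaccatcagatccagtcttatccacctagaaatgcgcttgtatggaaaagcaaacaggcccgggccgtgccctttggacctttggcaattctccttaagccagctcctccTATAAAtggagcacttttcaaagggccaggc
Foxa2: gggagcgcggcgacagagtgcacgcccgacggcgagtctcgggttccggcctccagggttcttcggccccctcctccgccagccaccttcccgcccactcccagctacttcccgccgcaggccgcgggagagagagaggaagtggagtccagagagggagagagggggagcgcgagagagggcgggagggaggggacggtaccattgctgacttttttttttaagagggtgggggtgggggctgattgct
The motifs were AGATAA for GATA, CAAAGTCCA for HNF4, TGTTTAC for FOXA and TATAAA for the TATA box, each on both strands. In Afp, TATAAA began 30 bases before the start of the counted transcript, and in Apob TATAAA began 31 bases before it. TATAAA was present in 13.6% of the 32851 promoters of 300 bases in the table. AGATAA was present in 11.2%, TGTTTAC in 3.65% and CAAAGTCCA in 0.475% of them. No other match was found in the 6 promoters, which says only that these letters are not in these windows.

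The counted transcripts lay on GRCm38 at chr5:90490737-90508907 (Afp), chr9:46228580-46230466 (Apoa1), chr12:7977648-8016835 (Apob), chr12:111271095-111276426 (Amn), chr2:13276338-13491813 (Cubn), chr14:63198922-63245271 (Gata4), chr1:4490931-4496413 (Sox17) and chr2:148042877-148045948 (Foxa2), and Ttr and Gata6 lay on chromosome 18. All were protein coding, and reads were counted over their exons. Afp, Cubn and Gata6 each overlapped an annotated gene on the opposite strand, and no source used here says that counting used strand. For Gata4, 2 transcripts had counts within 1% of each other, so the value stands for the gene.

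At the targeted genes the knockouts of each cross lay below its controls. Ehmt2 lay between 3.29 and 9.79 counts per 1000000 counted (CPM) in its 4 knockouts and between 10.5 and 34.1 CPM in its 4 controls. Ezh2 lay between 11.4 and 16.0 CPM in its 3 knockouts and between 51.6 and 108 CPM in its 3 controls. Ezh2 controls 1 and 2, at 51.6 and 64.9 CPM, were below all Ehmt2 cross embryos, at 78.3 to 103 CPM. Whether a control was wild type or heterozygous was not tested. The log2 fold change, knockout over control, was -1.63 ± 0.21 (SE) for Ehmt2 with an edgeR adjusted p of 0.00454, and -2.52 ± 0.27 for Ezh2 with an adjusted p of 0.016. The 8 epiblast markers summed to between 1451 and 2784 CPM in every library. In the Ehmt2 cross all 4 knockouts had a lower sum, at 1451 to 2201 CPM, than any control, at 2420 to 2784 CPM. Of all transcripts tested in that cross, 5.09% did not overlap between the groups. The sums of the Ezh2 groups overlapped. Dnmt3b made up most of the sum, with Ehmt2 cross means of 1790 CPM in controls and 1268 CPM in knockouts. By log2 fold change 6 of the 8 markers were lower in Ehmt2 knockouts, and Sox2 and Pou3f1 were higher. Of the 8 markers 0 were called in either cross, and Fgf5 came nearest in the Ehmt2 cross with a log2 fold change of -0.70 ± 0.14 and an edgeR adjusted p of 0.0548.

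The secreted proteins separated Ezh2 control 2 and Ezh2 knockout 1 from the other 12 embryos. Apob, the structural protein of lipoprotein particles, stood at 12.4, 733 and 6.41 CPM in Ezh2 controls 1 to 3 and at 1700.0, 7.29 and 8.84 CPM in Ezh2 knockouts 1 to 3. Among the Ehmt2 embryos Apob stood at 22.4, 16.3, 16.8 and 1.07 CPM in controls 1 to 4 and at 2.86, 24.8, 7.57 and 0.401 CPM in knockouts 1 to 4. Ezh2 control 2 thus exceeded the highest of the other 12 embryos 29.6-fold and Ezh2 knockout 1 exceeded it 68.7-fold, and these embryos carried opposite genotypes.

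Afp, a fetal serum carrier protein, showed the same contrast. It stood at 1.57, 39.4 and 0 CPM in Ezh2 controls 1 to 3 and at 117, 0.59 and 0.262 CPM in Ezh2 knockouts 1 to 3. Among the Ehmt2 embryos it stood at 1.35, 0.193, 0.909 and 0 CPM in controls and at 0.772, 2.49, 0.6 and 0.518 CPM in knockouts. Outside the pair of high embryos the levels stayed at or below 2.49 CPM, and controls and knockouts overlapped. A count of 0 allows a level of up to 3 counts, which was 0.0563 CPM in Ehmt2 control 4 and 0.085 CPM in Ezh2 control 3, and these limits cover counting error only.

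Ttr, the carrier of thyroid hormone and of retinol-binding protein, stood at 0.56, 29.5 and 0.34 CPM in Ezh2 controls and at 74.7, 0.161 and 0.472 CPM in Ezh2 knockouts. Among the Ehmt2 embryos it ranged from 0 to 1.44 CPM in controls and from 0 to 2.29 CPM in knockouts. Both replicate 4 embryos of the Ehmt2 cross had no Ttr count. They were the most deeply sequenced of the 14 but listed the fewest transcripts.

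Apoa1, the main protein of high-density lipoprotein, stood at 0.98, 91.1 and 0.227 CPM in Ezh2 controls and at 195, 1.93 and 5.04 CPM in Ezh2 knockouts. It stood at 4.93, 4.27, 2.38 and 0.131 CPM in Ehmt2 controls and at 0.858, 4.08, 2.27 and 0.0501 CPM in Ehmt2 knockouts. Apart from the pair of high embryos, the highest value was in Ezh2 knockout 3. There Apob, at 8.84 CPM, and Ttr, at 0.472 CPM, were slightly above their medians over the 12 embryos outside the pair. Those medians were 8.21 and 0.353 CPM. Afp, at 0.262 CPM, was below its median of 0.595 CPM.

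The uptake receptor followed the secreted proteins. Cubn encodes cubilin, the endocytic receptor for several vitamin and lipoprotein carriers, and Amn encodes amnionless, the partner that brings cubilin to the cell surface. Cubn stood at 4.51, 192 and 3.54 CPM in Ezh2 controls and at 396, 3.54 and 3.80 CPM in Ezh2 knockouts. It stood at 14.2, 11.5, 8.85 and 0.0375 CPM in Ehmt2 controls and at 2.83, 17.5, 17.8 and 0.484 CPM in Ehmt2 knockouts. Amn was far lower, at 0.084, 5.08 and 0.0283 CPM in Ezh2 controls and 8.36, 0.59 and 0.315 CPM in Ezh2 knockouts. In the Ehmt2 cross Amn did not exceed 0.723 CPM in any embryo, and the receptor and its partner were highest in the same pair of Ezh2 embryos.

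The transcription factors were lower in CPM and less uniform. Gata4, a regulator of endoderm and heart, stood at 0.728, 10.2 and 0.17 CPM in Ezh2 controls and at 26.5, 3.27 and 2.83 CPM in Ezh2 knockouts. It stood at 1.35, 1.82, 2.35 and 0.544 CPM in Ehmt2 controls and at 0.258, 2.26, 1.15 and 0.0334 CPM in Ehmt2 knockouts. Ezh2 knockouts 2 and 3 were thus also above Ezh2 controls 1 and 3, unlike for Apob.

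Gata6, an early endoderm regulator, stood at 0.224, 2.57 and 0.0567 CPM in Ezh2 controls and at 1.93, 0.107 and 0.394 CPM in Ezh2 knockouts. In the Ehmt2 cross it was highest in control 2, at 1.80 CPM from 84 counts, and had 0 counts in both replicate 4 embryos. The excess of Ezh2 control 2 and Ezh2 knockout 1 over the next embryo was only 1.42-fold and 1.07-fold.

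Sox17, a regulator of definitive and extraembryonic endoderm, never exceeded 2.30 CPM. That value was in Ezh2 knockout 1, from 74 counts, and Ezh2 control 2 followed with 0.885 CPM from 31 counts. In the Ehmt2 cross it had at most 2 counts in any control and 6, 20, 14 and 0 counts in knockouts 1 to 4, so its controls lay at or near 0.

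Foxa2, a regulator shared by visceral endoderm, anterior streak and definitive endoderm, was highest elsewhere. It stood at 0, 1.97 and 0.17 CPM in Ezh2 controls and at 1.65, 5.42 and 1.23 CPM in Ezh2 knockouts. It stood at 0.301, 5.58, 0.0535 and 0.281 CPM in Ehmt2 controls and at 0.0286, 0.145, 0.104 and 0.0334 CPM in Ehmt2 knockouts. Ehmt2 control 2 and Ezh2 knockout 2 thus held its highest levels, while Apob there was 16.3 and 7.29 CPM, as in embryos with low Foxa2. Foxa2 in Ezh2 control 2 and Ezh2 knockout 1 was still 12.5-fold and 10.5-fold above the median of the other 12 embryos.

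**Figure D1:**
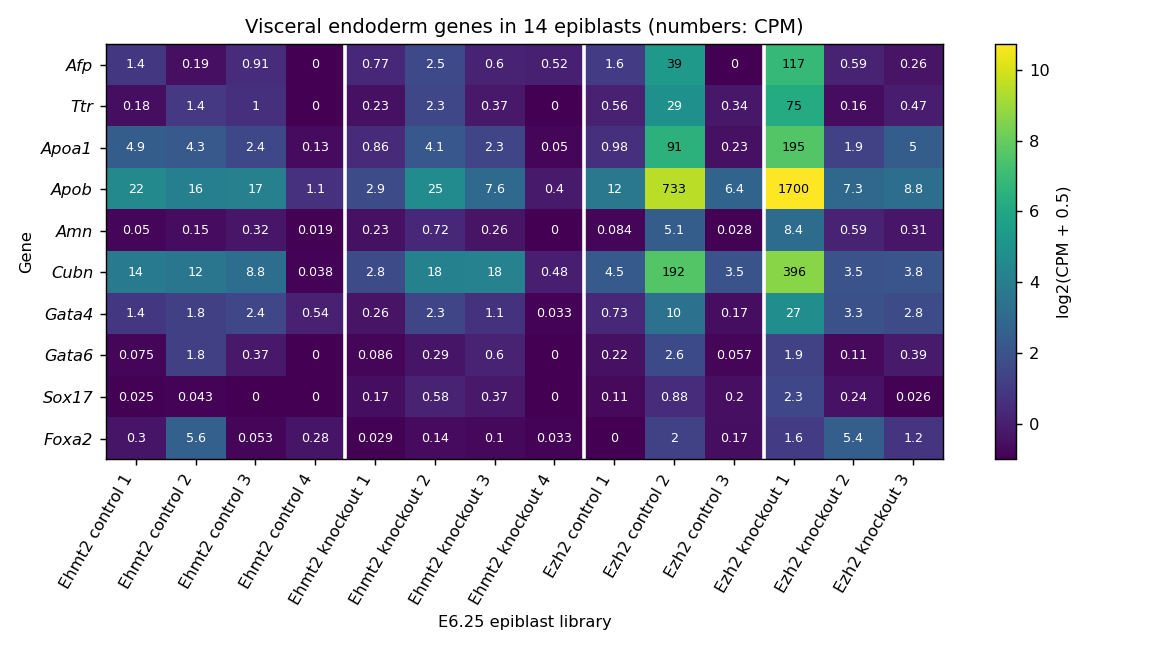
Levels of the 10 genes (rows) in the 14 epiblast libraries (columns), with colour giving log2(CPM + 0.5), printed numbers giving CPM and white lines separating the 4 groups. Ezh2 control 2 and Ezh2 knockout 1 stand out for Apob at 733 and 1700.0 CPM and for the other secreted and uptake genes, and both Ehmt2 replicate 4 embryos are near 0 for most genes.

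Across the list, Ezh2 control 2 and Ezh2 knockout 1 both exceeded each of the other 12 embryos for 9 of 10 genes, all but Foxa2. The pair was named for these same levels, so this count only describes it. The share of all genes with this pattern was not computed. Ezh2 control 2 was the highest control of its cross for 10 of 10 genes, and Ezh2 knockout 1 was the highest knockout for 9 of 10. Summed over the 10 genes they held 1106 and 2523 CPM, against 1.52 to 55.1 CPM in the others. Knockout 1 was above control 2 for 8 of 10 genes, by 1.65-fold for Amn up to 2.96-fold for Afp, whereas Gata6 and Foxa2 were lower in it.

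The proportions of the genes to each other were close in both embryos. Per 100 counts of Apob in the same library, control 2 and knockout 1 held 5.37 and 6.87 counts of Afp, 4.02 and 4.39 of Ttr, and 12.4 and 11.5 of Apoa1. They held 26.2 and 23.3 counts of Cubn and 1.397 and 1.559 of Gata4. For 7 of 9 genes the ratio differed less than 1.5-fold between them, and the exceptions were Gata6 at 3.09-fold and Foxa2 at 2.77-fold. These ratios use counts of a single library and do not depend on the scaling between libraries.

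In the other 12 embryos the proportions were more varied. The median ratio to Apob was above both of the pair for 9 of 9 genes, secreted and uptake genes included, but Gata4 alone was above both in every one of the 12. Gata4 ran from 2.65 to 50.9 counts per 100 Apob counts, with a median of 10.1, against 1.397 and 1.559 in the pair. Cubn had a median of 59.2 but a lowest value of 3.51. Foxa2 ran from 0 to 74.3, with the highest in Ezh2 knockout 2. Afp reached 129 in Ehmt2 knockout 4, where it rested on 31 counts of Afp and 24 of Apob.

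**Figure D2:**
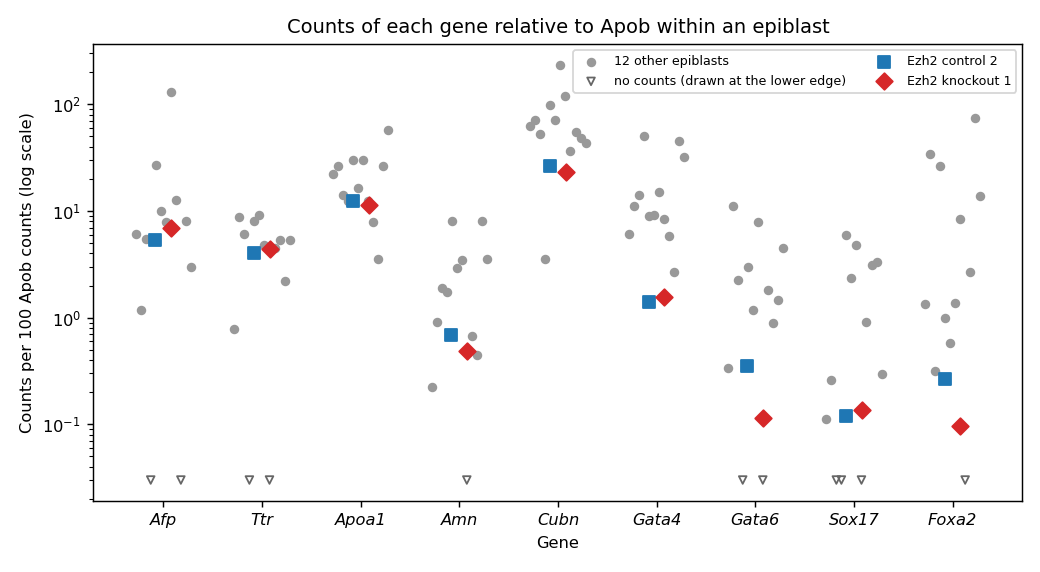
Counts of 9 genes per 100 Apob counts of the same library, on a log axis, with grey points for the 12 other epiblasts, a blue square for Ezh2 control 2, a red diamond for Ezh2 knockout 1 and open triangles for libraries with no count. Square and diamond nearly coincide for Afp, Ttr, Apoa1, Cubn, Gata4 and Sox17, and grey Gata4 points all lie above them.

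Per kilobase of transcript, which allows genes to be compared, the first 8 genes had the same order in both, and Gata6 and Sox17 swapped places at the end. Apoa1 led with 88.0 and 188 CPM per kb in Ezh2 control 2 and Ezh2 knockout 1, and Apob followed with 52.6 and 122 CPM per kb. Ttr came next with 24.9 and 63.0, then Afp with 19.1 and 56.6, and Cubn with 17.0 and 35.2 CPM per kb. The transcription factors and Amn stayed between 0.283 and 7.80 CPM per kb. By the median of the other 12 embryos, Apoa1 led again with 2.03 and Apob followed with 0.589 CPM per kb, but Cubn at 0.369 and Gata4 at 0.368 CPM per kb came before Ttr at 0.297 and Afp at 0.288. The last 4 of these medians differ by far less than the spread between embryos of any of these genes.

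Other visceral endoderm genes were high in the same pair. Of 29 further genes, 20 exceeded each of the 12 other embryos in both, made up of 11 of 13 secreted proteins, 3 of 4 uptake genes, 3 of 5 transcription factors and 3 of 7 anterior and signalling genes. The share of all genes that did so was not computed, so these counts have no background to be set against. Spink1, a secreted protease inhibitor, stood at 56.5 and 88.6 CPM in Ezh2 control 2 and Ezh2 knockout 1, against 0 to 1.97 CPM elsewhere. Dab2, an endocytic adaptor, stood at 129 and 254 CPM against 7.40 to 28.8 CPM elsewhere, and Hnf4a, a regulator of hepatocyte and visceral endoderm genes, at 16.8 and 24.2 CPM against 0 to 1.94 CPM. Apoe, a lipoprotein ligand, stood at 45.1 and 51.7 CPM against 6.84 to 13.0 CPM.

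Some genes of that list did not separate the embryos. Apoc1, a small apolipoprotein, stood at 4.11 and 9.92 CPM in the pair and reached 12.7 CPM elsewhere. Lrp2, the megalin receptor, stood at 121 and 286 CPM and ranged from 102 to 197 CPM in the other 12, and Bmp2, a secreted growth factor, stood at 3.20 and 7.68 CPM and reached 17.5 CPM in Ehmt2 knockout 3. Lrpap1, the chaperone of such receptors, was only modestly higher, at 21.4 and 23.8 CPM against 9.04 to 16.5 CPM.

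The pair differed from each other in anterior genes. Cer1, a secreted inhibitor of Nodal, BMP and Wnt signals, stood at 39.1 CPM in Ezh2 control 2 and at 2.05 CPM in Ezh2 knockout 1, against 0 to 1.53 CPM elsewhere. Lhx1, a regulator of anterior visceral endoderm and mesendoderm, stood at 31.7 and 14.6 CPM, against 0 to 8.09 CPM elsewhere. Ezh2 control 2 was the highest of the 14 embryos for 5 of 7 anterior and signalling genes and Ezh2 knockout 1 for 0 of 7, whereas knockout 1 was the highest of 14 for 8 of the 10 genes and control 2 for 1. With 1 embryo of each kind this difference was not tested.

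The genes whose deviations from their group means were most like the mean of the list were Spink1 (Pearson r = 0.994), Dab2 (0.984) and Hnf4a (0.966) over the 14 embryos. They were followed by Npl (0.961), an aldolase of sialic acid, Clic6 (0.960), a chloride channel protein, Slc13a4 (0.959), a sulfate transporter, and Nxf7 (0.957). Cpn1 (0.955), a carboxypeptidase subunit, Ipp (0.953), Apoc2 (0.952), an activator of lipoprotein lipase, and Myo6 (0.952), an actin motor of endocytosis, came last of those named. All of these values share the libraries of the high pair. Over the other 12 embryos, in a calculation added after the data were seen, r was 0.972 for Spink1 and 0.985 for Dab2 and lay between 0.727 and 0.9 for the other 9 named. Within the list, r with the mean of the remaining genes was 0.981 for Apob and 0.283 for Foxa2 over 14 embryos, and 0.954 and 0.223 over the other 12. The values over 12 embryos share both replicate 4 embryos of the Ehmt2 cross. In these the 10 genes summed to only 2.08 and 1.52 CPM, and only group means were removed.

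Both replicate 4 embryos of the Ehmt2 cross stood apart at the low end. The 10 genes summed to 2.08 CPM in control 4 and 1.52 CPM in knockout 4, against 8.32 to 55.1 CPM in the other 6 embryos of that cross. In both, 4 of 10 genes had 0 counts, and for 6 of 10 genes both lay below each of the other 6. Cubn had 2 counts in control 4 and 29 in knockout 4, against 99 to 682 in the others. These libraries were the deepest, and the study's list of changed genes sets knockout 4 against control 4. Replicate 4 therefore entered the fit with a term of its own.

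**Figure D3:**
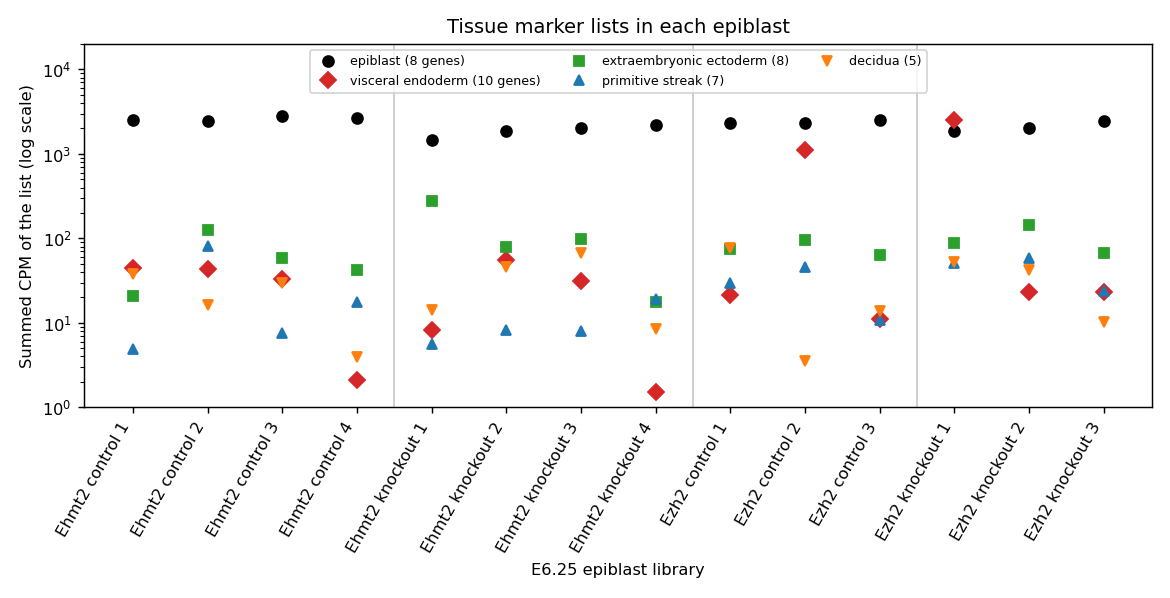
Summed CPM of marker lists (log axis) in each epiblast library, with the 8 epiblast markers in black, the 10 visceral endoderm genes in red, extraembryonic ectoderm in green, primitive streak in blue and decidua in orange. Epiblast markers stay between 1451 and 2784 CPM, while the visceral endoderm genes run from 1.52 to 2523 CPM.

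In the Ehmt2 cross the question was whether loss of G9a changed these genes, and no change was detected. Of the 10 genes, 7 passed the filter on low counts and 0 were called at an edgeR adjusted p below 0.05 with a log2 fold change beyond 1.4, where 0.499% of all 49872 tested transcripts were called. At an unadjusted p below 0.05 and the same fold the count was also 0, where 3.13% of all transcripts passed, and DESeq2 called 0, where it called 1.48% of all. The log2 fold changes were 3 above and 4 below 0, with a median of -0.77 against -0.01 over all transcripts. They ran from 1.37 ± 0.93 (SE) for Afp to -1.18 ± 1.06 for Gata6, with edgeR adjusted p from 0.571 for Gata4 to 0.978 for Ttr.

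Apob, at -0.79 ± 0.49, and Cubn, at 0.49 ± 0.54, had the better counts and went opposite ways. The groups overlapped for all 10 genes, where 5.09% of all transcripts did not overlap. The exact two-sided permutation p over the 8 embryos was 0.486 for Apob, 0.857 for Cubn and 0.0857 for Foxa2, and the smallest p that 4 against 4 allows is 0.0286. Ttr changed sign without Ehmt2 control 1 or Ehmt2 knockout 2, and Gata6 changed sign without Ehmt2 control 2.

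Amn, Sox17 and Foxa2 did not pass the filter in the Ehmt2 cross. Fitted without it, Sox17 had a log2 fold change of 3.64 ± 1.37 with an edgeR adjusted p of 0.306, and Foxa2 had -4.10 ± 1.11 with an adjusted p of 0.113. Both passed an unadjusted p of 0.05, as did 4.8% of all transcripts in that fit. Foxa2 rested on the 260 counts of Ehmt2 control 2, since the other controls had 12, 2 and 15 counts and the knockouts 1 to 5. Sox17 had at most 20 counts in any of these embryos.

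In the Ezh2 cross the group means were set by the pair of high embryos. Of the 10 genes, 9 passed the filter and 0 were called, where 0.0118% of all 50855 tested transcripts were called. At an unadjusted p below 0.05 and the same fold the count was also 0, where 1.86% of all transcripts passed, and DESeq2 called 0, where it called 0.35% of all. The log2 fold changes were above 0 for 8 of 9 genes, with a median of 1.19 against 0.01 over all transcripts, but each SE was above 1.1. Amn had 3, 178 and 1 counts in controls and 269, 22 and 12 in knockouts, and Foxa2 had 0, 69 and 6 against 53, 202 and 47. Both passed the filter only through the knockouts, which favours a higher value there. Apob had 1.19 ± 1.88, Afp 1.52 ± 1.84 and Foxa2 1.95 ± 1.13, and edgeR adjusted p ran from 0.794 for Foxa2 to 0.983 for Gata6. The groups overlapped for all 10 genes, where 13.1% of all transcripts did not overlap. Exact two-sided permutation p was 0.8 for Apob and 0.3 for Foxa2, and 3 against 3 cannot go below 0.1.

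Leaving out 1 of the high embryos at a time turned the result around. Without Ezh2 control 2, 9 of 9 tested genes were higher in knockouts, with a median log2 fold change of 5.64. Without Ezh2 knockout 1, 8 of 9 were lower, with a median of -3.14. Apob moved from 5.93 to -4.96 between these fits. EdgeR called 0 of the 9 tested genes in each, and each fit kept the other high embryo. Of all transcripts it called 27 of 53047 without control 2. It called 0 of 52510 without knockout 1, so 0 calls there cannot set these genes apart. At the unadjusted p and fold used above, 8 of 9 genes passed without control 2, where 1306 transcripts passed as higher and 262 as lower. In the fit without knockout 1, 4 of 9 passed, where 842 transcripts passed as higher and 433 as lower.

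Without both high embryos, a comparison of 2 against 2 that was chosen after the data were seen, the genes differed in the size of their change. Apob, Cubn, Ttr and Afp had changes smaller than their SE. Apob had a log2 fold change of -0.22 ± 0.36, Cubn -0.13 ± 0.40, Ttr -0.50 ± 1.05 and Afp -0.88 ± 1.46. Apoa1 had 2.52 ± 0.77, Amn 2.93 ± 1.25, Gata4 2.75 ± 0.74 and Foxa2 5.24 ± 1.16. Amn rested on 3 and 1 counts in the controls and 22 and 12 in the knockouts, and Foxa2 on 0 and 6 against 202 and 47, so both passed the filter only through the knockouts and had to be higher there. These 4 genes passed an unadjusted p of 0.05 with a log2 fold change beyond 1.4, as did 2.56% of all transcripts in that fit. None of the 8 genes tested was called, where 0.0565% of all 51339 transcripts were, and the edgeR adjusted p were 0.653, 0.790, 0.550 and 0.352 for Apoa1, Amn, Gata4 and Foxa2.

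**Figure D4:**
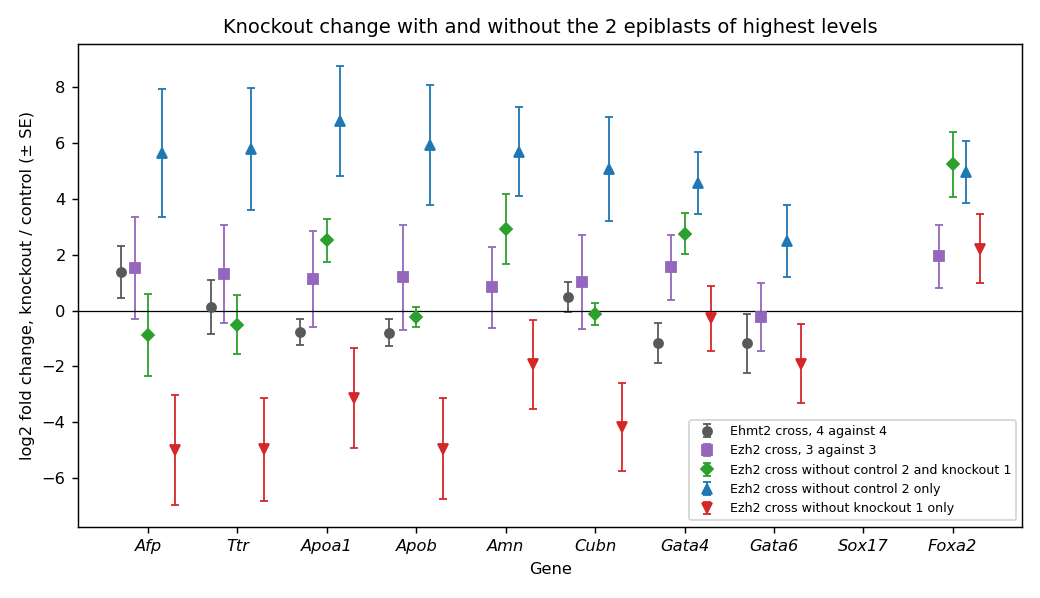
Log2 fold changes (knockout over control, bars are SE) of the tested genes in the Ehmt2 cross, in the Ezh2 cross and in the Ezh2 cross without the high embryos. Leaving out Ezh2 control 2 or Ezh2 knockout 1 alone moves Apob to 5.93 or -4.96, and leaving out both brings it to -0.22, while Foxa2 has 5.24.

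The crosses were compared in an edgeR fit over all 14 embryos, as the change in Ehmt2 knockouts minus the change in Ezh2 knockouts. All 10 genes were tested and 0 differed at an adjusted p below 0.05, where 0.0579% of all 55248 transcripts did. Foxa2 differed most, by -6.05 ± 1.92 log2 units with an adjusted p of 0.399, and was the only gene of the list with an unadjusted p below 0.05, where 8.33% of all transcripts passed. Its 4 Ehmt2 knockouts lay below the mean of their controls and its 3 Ezh2 knockouts above theirs. Gata4 followed at -2.61 ± 1.49 with an adjusted p of 0.678. A fit without the high embryos was chosen after the data were seen, by the levels of these same genes. It left 2 against 2 in the Ezh2 cross, and Foxa2 still held the 260 counts of Ehmt2 control 2. The differences of Foxa2 and Gata4 were then -9.35 ± 2.17 and -3.91 ± 1.19, with edgeR adjusted p of 0.232 and 0.408. In that fit Apoa1 too had an unadjusted p below 0.05, making 3 of 10 genes, where 8.18% of all transcripts passed.

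The sum of the streak markers was highest where Foxa2 was highest. In Ehmt2 control 2, where Foxa2 was highest, the 7 streak markers summed to 80.2 CPM, against 4.96 to 17.6 CPM in the other Ehmt2 controls and 5.55 to 19.2 CPM in the Ehmt2 knockouts. In Ezh2 knockout 2, the next highest, they summed to 59.1 CPM, against 10.9 to 51.4 CPM in the other Ezh2 embryos. T (brachyury) stood at 15.4 and 18.5 CPM in these 2 embryos and at 0 to 7.37 CPM in the other 12. Single markers were less uniform. Ehmt2 control 2 was the highest of the 14 embryos for 2 of the 7 markers and Ezh2 knockout 2 for 3. Ezh2 control 2 and Ehmt2 knockout 4 were the highest for 1 each. Of these markers 6 were tested in each cross and 0 were called. The part of streak cells in the Foxa2 values was not tested.

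Markers of most other tissues did not follow the pair of high embryos. The 8 extraembryonic ectoderm markers summed to 17.8 to 273 CPM over the 14 embryos and to 95.9 and 87.8 CPM in Ezh2 control 2 and Ezh2 knockout 1. In the Ezh2 controls that sum was almost all Eomes, at 62.2 to 95.1 CPM of sums of 64.0 to 95.9 CPM. Taken singly, 0 of the 8 markers exceeded each of the 12 other embryos in both of the pair. The highest sum of the 8 was in Ehmt2 knockout 1, where the 10 visceral endoderm genes summed to only 8.32 CPM. Of the 8 markers, 7 were tested in the Ehmt2 cross and 3 were called higher. These were Elf5 (log2 fold change 6.03 ± 0.86, edgeR adjusted p 0.0114), Tfap2c (3.80 ± 0.57, 0.0119) and Esrrb (5.33 ± 0.63, 0.0031). The rise was uneven, since Elf5 ran from 0 to 60.9 CPM over the knockouts, Tfap2c from 0 to 26.1 and Esrrb from 1.12 to 40.5 CPM. Ehmt2 knockout 4 was the lowest knockout for 7 of the 8 markers. In the Ezh2 cross 5 were tested and 0 were called.

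Decidua markers, 5 of 5 listed, summed to 3.54 CPM in Ezh2 control 2, the lowest of the 14, where 3 of the 5 had counts. They summed to 52.0 CPM in Ezh2 knockout 1, the third highest, and to at most 77.9 CPM in the others. Of the 6 blood markers, 4 were listed, and they summed to 0 to 1.48 CPM. Of the 6 parietal endoderm markers, which other tissues also express, 2 were above each of the 12 other embryos in the high pair, and the sum ran from 98.6 to 218 CPM over the 14, with 164 and 206 CPM in the pair. In each cross 5 decidua genes were tested, and 6 parietal endoderm genes were tested in the Ehmt2 cross and 5 in the Ezh2 cross, with 0 called. No blood marker passed the filter, so none was tested. Among the 29 further visceral endoderm genes, 21 were tested in the Ehmt2 cross and 25 in the Ezh2 cross, and 0 were called in each, with medians of -0.04 and 0.32. The number of visceral endoderm cells left on each epiblast was not measured, so its part in these values was not tested.

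**Figure D5:**
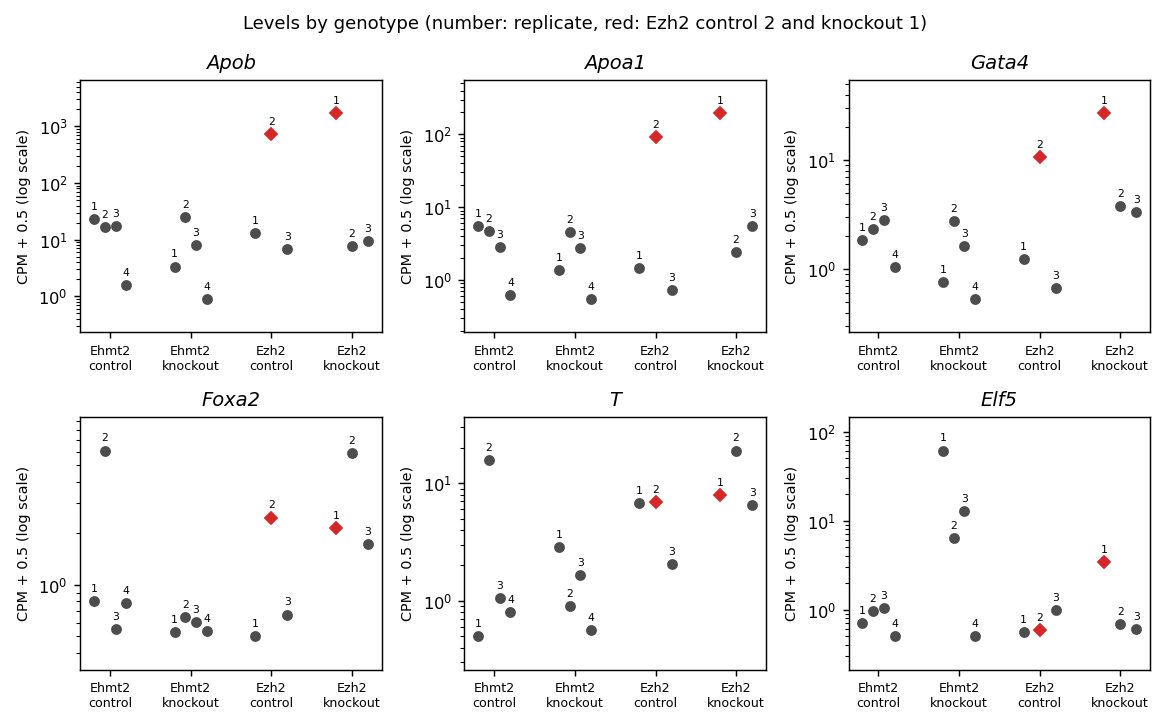
CPM + 0.5 (log axes) of Apob, Apoa1, Gata4 and Foxa2 and of the streak marker T and the extraembryonic ectoderm marker Elf5 by group, with each point an epiblast numbered by replicate and red diamonds for Ezh2 control 2 and Ezh2 knockout 1. Apob is high in these embryos alone, Foxa2 and T are highest in Ehmt2 control 2 and Ezh2 knockout 2, and Elf5 is highest in Ehmt2 knockout 1.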

How the data were processed

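The 14 epiblast libraries were analysed, and the chromatin and methylation samples of the series were not used here. Per the study's methods the authors trimmed reads to 40 nt, removed adapters, aligned them to GRCm38 with TopHat2 and counted them per Ensembl release 74 transcript with HTSeq. The deposited values were raw counts per transcript with zeros left out, and an absent transcript was read as 0. A row that named no transcript, present in the replicate 4 libraries of the Ehmt2 cross with 12.6% and 13.3% of their totals, was left out. Of 72515 transcripts, 70021 (96.6%) matched GENCODE vM21 names.

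Levels were CPM with trimmed-mean scaling over the 14 libraries, and on a log scale 0.5 was added. Tests used edgeR 4.0.16 (quasi-likelihood, filterByExpr, Benjamini-Hochberg over all transcripts) in R 4.3.3. A transcript was called at an adjusted p below 0.05 and a log2 fold change beyond 1.4, and a difference between crosses at the adjusted p alone. SE was the size of the log2 fold change divided by the root of F. The Ehmt2 fit had a term for replicate 4. The study's list of changed genes sets knockout 4 against control 4, whereas its methods compare each knockout with all controls. Exact permutation tests used scipy 1.17.1, and DESeq2 1.42.0 was an alternative. The fits were tested on simulated data. Replicates were single embryos from several litters, and no 2 libraries of a group differed by as little as sampling noise. Amplified reads without molecular identifiers are not independent molecules, so precision from counts is counting error only.

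The 10 genes and all lists were chosen with earlier results of these data known. The text names the 10 genes, Ehmt2 and Ezh2, any called gene of the lists, the 3 genes of highest mean CPM per kb in each list of further visceral endoderm genes, and 11 of the 12 genes most like the 10, since 1 is not reported here. T, Fgf5, Dnmt3b, Sox2, Pou3f1 and Eomes were named after their values were seen. The TATA box was added to the motifs after the promoters were seen.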

Additional observations from a re-analysis of the deposited data

Results flagged for a closer look

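Of the 20 sets of 4 embryos in the Ehmt2 cross, 3 held an embryo far from the others on the log2 scale by Dixon's criterion, and chance gives about 1 in 20. Apob was low in Ehmt2 control 4, with a gap of 0.885 of the range. Cubn was low in the same embryo, with a gap of 0.864. Foxa2 was high in Ehmt2 control 2, with a gap of 0.846. Groups of 3, and so the Ezh2 embryos, were not examined in this way.

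Foxa2 also lay in opposite directions in the crosses. All 4 Ehmt2 knockouts lay below the mean of the controls of their set and all 3 Ezh2 knockouts above the mean of theirs, and the difference of the log2 fold changes was -6.05. Tested in edgeR over 14 embryos it had an adjusted p of 0.399, so the opposite directions did not pass the test.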

How the results depend on the processing

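No visceral endoderm gene was called under any alternative in either cross, and none differed between the crosses at the adjusted p. The count of all transcripts called did depend on the processing, and the cause was not tested. From 249 in the Ehmt2 cross it became 736 with DESeq2, 460 without the filter, 124 with 1 transcript per gene, 52 without the term for replicate 4, 436 in replicates 1 to 3 only and 101 to 447 on leaving out an embryo. From 6 in the Ezh2 cross it became 178 with DESeq2, 28 without the filter, 0 with 1 transcript per gene, 0 to 27 on leaving out an embryo and 29 without control 2 and knockout 1. From 32 in the comparison of crosses it became 20 with 1 transcript per gene, 11 to 27 on leaving out an embryo and 17 without the high pair.

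The numbers were not taken as pairs, since not every same-numbered control and knockout had deviations correlated above 0.1. In the Ehmt2 cross r was 0.053, 0.098 and 0.161 for replicates 1 to 3 and 0.361 for replicate 4, which correlated at -0.144 to -0.236 with every other number and had its own term in the fit, and in the Ezh2 cross it ran from -0.116 to 0.153. In fits with a replicate block, 105 transcripts were called in the Ehmt2 cross and 10 in the Ezh2 cross, and the log2 fold change became -0.13 for Ttr in the Ehmt2 cross and 0.91 for Gata6 in the Ezh2 cross.

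Directions turned mainly with the choice of embryos. On leaving out an embryo, the log2 fold changes in the Ehmt2 cross ran from -1.51 to 0.66 for Ttr and -1.92 to 0.51 for Gata6. Those that kept their direction ran from 0.65 to 2.00 for Afp, -1.31 to -0.45 for Apoa1, -1.73 to -0.45 for Apob, 0.14 to 0.94 for Cubn and -1.92 to -0.60 for Gata4, and the lowest adjusted p was 0.0809, for Apob without knockout 2. In the Ezh2 cross they ran from -4.99 to 5.64 for Afp, -4.98 to 5.79 for Ttr, -3.14 to 6.79 for Apoa1, -4.96 to 5.93 for Apob, -1.93 to 5.69 for Amn, -4.18 to 5.06 for Cubn, -0.28 to 4.58 for Gata4 and -1.91 to 2.49 for Gata6, with the extremes without knockout 1 and without control 2. Without both, they were -0.88 for Afp, -0.50 for Ttr, -0.22 for Apob and -0.13 for Cubn. Differences between the crosses ran from -4.52 to 6.19 for Afp, -5.68 to 5.09 for Ttr, -7.52 to 2.39 for Apoa1, -6.69 to 4.18 for Apob, -4.76 to 2.81 for Amn, -4.68 to 4.57 for Cubn and -3.66 to 0.75 for Gata6, and without the high pair they were 2.25 for Afp, 0.62 for Ttr, -2.15 for Amn and 0.63 for Cubn. The difference of Foxa2 ran from -9.08 without Ezh2 control 2 to -3.46 without Ehmt2 control 2.

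Low counts limit Amn, Sox17 and Foxa2 most, and 11 of the 140 values of the 10 genes were 0. In the Ezh2 cross each SE was above 1.1 log2 units with both high embryos in the fit. Without control 2 the median change of 5.64 came with 0 calls among 9 tested genes, where 27 of all 53047 transcripts were called.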
